A study of Bos taurus with 3 samples.

Results

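The 10 genes described here take glucose into the cell and carry it down glycolysis to lactate. They are the glucose transporter SLC2A1 (ENSBTAG00000009617), the hexokinases HK1 (ENSBTAG00000012380) and HK2 (ENSBTAG00000013108), the platelet-type phosphofructokinase PFKP (ENSBTAG00000002683), the aldolase ALDOA (ENSBTAG00000012927), GAPDH (ENSBTAG00000014731), the phosphoglycerate kinase PGK1 (ENSBTAG00000000894), the pyruvate kinase PKM (ENSBTAG00000001601) and the lactate dehydrogenases LDHA (ENSBTAG00000008683) and LDHB (ENSBTAG00000019603). They were chosen by symbol, each symbol matched 1 of the 27270 genes in the count matrices, and the rule that names them uses no measured value, although they were proposed with earlier results of these data known. The cells came from the rumen of 3 newborn Holstein calves, sampled 1 day after birth, with the outer muscle layers stripped before the tissue was digested with EDTA, trypsin and a mixture of collagenases, dispase, hyaluronidase and DNase. All 3 calves belonged to the same group, with no treatment named, and 1 droplet library (Chromium 3′ v3) was made per calf. The adult libraries of the study were not analysed here, so every comparison is between kinds of cells within the newborn rumen. The replicates are these 3 animals. In the main fits p-values set each difference against the variation left once each calf's own level is removed.

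In glycolysis, hexokinase traps glucose inside the cell as its 6-phosphate, phosphofructokinase makes the committed step, aldolase splits the sugar, and GAPDH, phosphoglycerate kinase and pyruvate kinase lead to pyruvate while ATP is made. Lactate dehydrogenase interconverts pyruvate and lactate as a tetramer of A and B subunits, and the A-rich forms are known from tissues that make lactate whereas the B-rich forms are known from tissues that use it. The rumen of the milk-fed calf does not yet ferment solid feed, its epithelium is known to use glucose, and with weaning it turns to butyrate and other short-chain fatty acids.

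After barcodes with 500 to 4000 detected genes had been kept and likely doublets removed, 4695, 9746 and 9601 cells remained in calves 1, 2 and 3, with medians of 10213, 6537.5 and 7479 unique molecular identifiers (UMIs) per cell. Between 9 and 26 kept barcodes were shared by each pair of libraries. Cells were clustered with the 10 genes and 64 further genes of glucose metabolism left out, and clusters were named from fixed marker lists. All 7 to 9 markers of each list were highest in the class they name, and none was at 0 there. That outcome was partly built in, because the same lists gave the names. The naming gave 21288 epithelial-like, 1245 endothelial-like, 766 immune-like, 430 fibroblast-like and 308 myofibroblast- or mural-like cells (hereafter mural-like). Calf 1 gave 16 of the fibroblast-like cells but 9 immune-like and 6 mural-like cells, and sums of under 10 cells were not used, so the values of these last classes come from calves 2 and 3. The classes differed in median depth, from 1918.5 UMIs in fibroblast-like to 7730.5 in epithelial-like cells, and in the median share of mitochondrial UMIs, from 1.77% in endothelial-like to 6.94% in fibroblast-like cells. The keratins KRT5, KRT14 and KRT15, which mark the epithelium, were found in the other classes at 3.52% to 14.7% of their epithelial level, with a higher value of 35.4% in the fibroblast-like cells of calf 1. The source of these keratin UMIs and their part in the results on glycolysis were not tested.

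Levels were computed for each calf and group of cells, as the UMIs of a gene per 10000 UMIs summed over the group. Differences are log2 fold differences from edgeR's quasi-likelihood test on the summed counts with the calf as a block, and a gene is called where its Benjamini-Hochberg adjusted p over all genes tested is under 0.05. The standard error (SE) printed with a difference is its absolute value divided by the square root of the test's F statistic. It is therefore not an estimate of spread separate from the p-value. Of the 10 genes, 9 passed the filter on low counts in both sets of fits and HK2 did not. A level depends on the share of RNA in other genes. Scaling by total UMIs alone, in place of edgeR's scaling, moved the median gene upward. The shift was 0.38, 0.39, 0.36 and 0.18 log2 units in endothelial-like, fibroblast-like, mural-like and immune-like cells. Fold differences from edgeR's scaling therefore lie below the ratios of levels for the median gene, and the 2 need not match.

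Across cell classes, the sum of the 10 genes was highest in immune-like cells and lowest in fibroblast-like cells. GAPDH had the highest level of the 10 in every class, and single genes did not all follow this order. The summed level of the 10 genes was 36.9, 23.8 and 24.7 UMIs per 10000 in epithelial-like cells of calves 1, 2 and 3, and 36.4, 26.5 and 24.95 in endothelial-like cells. In immune-like cells it was 45.2 and 38.3 in calves 2 and 3, and in mural-like cells 23.8 and 19.2. Fibroblast-like cells had 20.6, 16.8 and 12.9, the lowest value in each calf. Calf 1 had the highest sum in every class in which it could be measured, while epithelial-like and endothelial-like cells lay side by side in each calf.

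Against epithelial-like cells, 7 of the 9 genes tested were called in endothelial-like cells, 2 higher and 5 lower, where 49.5% of the 8371 genes tested were called, 26% higher and 23.4% lower. In fibroblast-like cells 7 were called, 1 higher and 6 lower, against 41.5% of all genes, 21.6% higher and 19.9% lower. Mural-like cells had 5 calls, 1 higher and 4 lower, against 31.3% of all genes, 16.7% higher and 14.6% lower, and immune-like cells had 3 calls, all higher, against 49.5% of all genes, 26.2% higher and 23.3% lower. The median log2 difference of the 9 genes was -0.43, -0.94, -0.51 and 0.50 in endothelial-like, fibroblast-like, mural-like and immune-like cells, where the median over all genes tested lay between -0.05 and 0.02. With scaling by total UMIs alone, the share of called genes that were higher went from 52.6% to 72.3% in endothelial-like, from 52.0% to 71.5% in fibroblast-like and from 53.4% to 73.9% in mural-like cells.

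**Figure D1:**
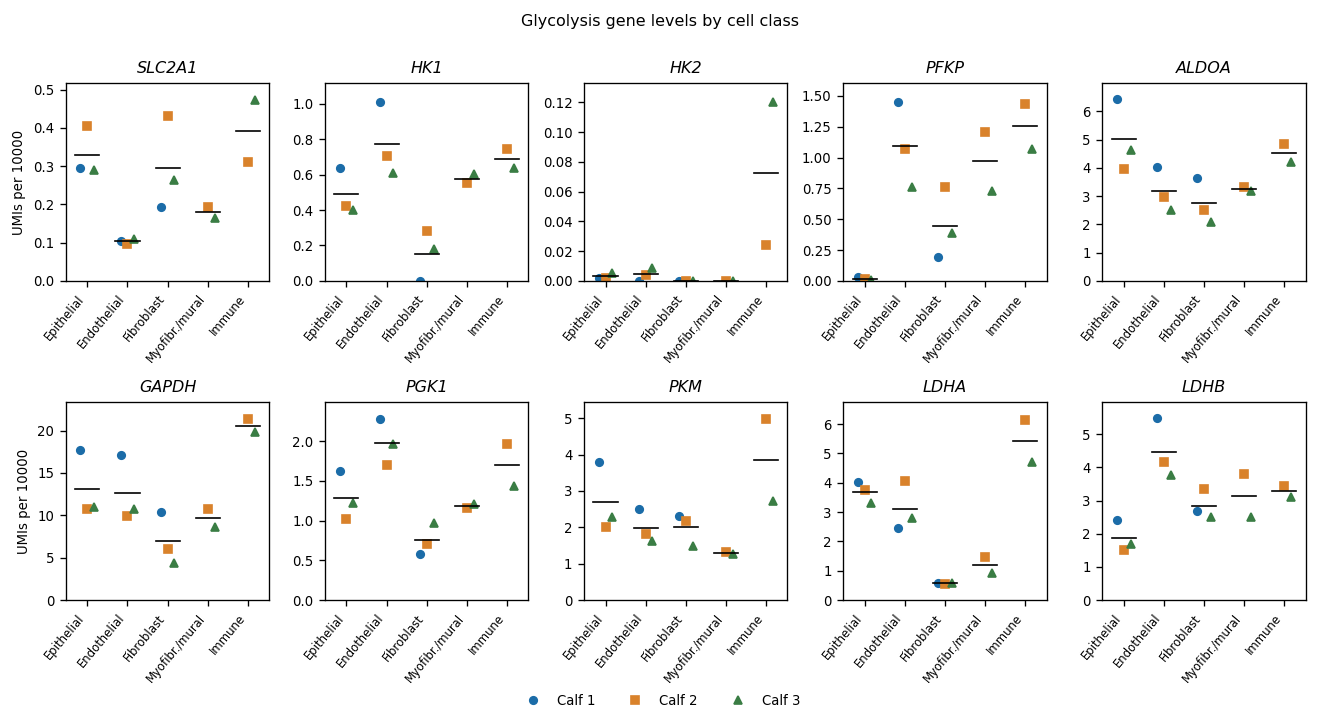
Levels of the 10 genes in the 5 cell classes. Each panel is 1 gene with UMIs per 10000 on the y axis from 0, points are calves and bars are means over calves, with calf 1 absent from the mural-like and immune-like classes; PFKP lies between 0.00528 and 0.0294 in epithelial-like cells and at 0.192 or more elsewhere, and LDHA lies at 0.587 or less in fibroblast-like cells.

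At the transporter, SLC2A1 (GLUT1, the transporter that many cells use for basal glucose uptake) was lower in endothelial-like cells than in epithelial-like cells. Its level was 0.295, 0.404 and 0.289 in epithelial-like cells of calves 1, 2 and 3 and 0.104, 0.0955 and 0.110 in endothelial-like cells, with no overlap. The fold difference was 4.27-fold lower (log2 difference -2.09 ± 0.28 SE, adjusted p = 1.59e-05, edgeR). Mural-like cells, at 0.193 and 0.165, were 2.49-fold lower (-1.32 ± 0.40, adjusted p = 0.0208, edgeR), a call that was lost without calf 2 (adjusted p = 0.125) and without calf 3 (adjusted p = 0.0899). Fibroblast-like cells, at 0.192, 0.432 and 0.263, and immune-like cells, at 0.312 and 0.473, overlapped the epithelial-like values, with adjusted p = 0.334 and 0.679 (edgeR). The value for fibroblast-like cells of calf 1 rests on 1 UMI. Beside SLC2A1, other transporters filled in the picture. SLC2A3 (GLUT3, a transporter of high affinity known from neurons and blood cells) was at 1.22, 2.92 and 2.38 in endothelial-like cells and at 2.69 and 1.95 in immune-like cells, but at 0.00335, 0.00698 and 0.0104 in epithelial-like cells. Its log2 difference was 7.91 in endothelial-like, 7.84 in immune-like, 5.72 in mural-like and 3.16 in fibroblast-like cells, all called. SLC2A4 (GLUT4, the insulin-responsive transporter of muscle and fat) was at 0.688 and 0.549 in mural-like cells and at 0.0274, 0.00625 and 0.00500 in epithelial-like cells, a log2 difference of 6.37, and it was not called in any of the other classes.

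At the hexokinase step, HK1, the widely expressed form, was the one found in these cells, and HK2, the form known from muscle, fat and tumours, was rare. HK1 reached 0.640, 0.425 and 0.402 in epithelial-like cells of calves 1, 2 and 3, 1.01, 0.706 and 0.609 in endothelial-like cells, 0.551 and 0.604 in mural-like cells and 0.743 and 0.636 in immune-like cells of calves 2 and 3. Within each calf these other classes stood above the epithelial-like cells, but none was called, with adjusted p = 0.276, 0.815 and 0.0981 (edgeR) in endothelial-like, mural-like and immune-like cells. With scaling by total UMIs alone HK1 was called higher in endothelial-like (adjusted p = 0.0113) and immune-like cells (adjusted p = 0.0251). Only in fibroblast-like cells was HK1 called, lower by 2.67-fold (log2 difference -1.42 ± 0.33, adjusted p = 0.0028), from 0, 11 and 9 UMIs or levels of 0.280 and 0.182 in calves 2 and 3. In calf 1 the absence of HK1 from 16 fibroblast-like cells allows a level of up to 0.577.

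HK2 gave 11, 12 and 38 UMIs in the epithelial-like cells of calves 1, 2 and 3, none in fibroblast-like and mural-like cells, and 4 in all endothelial-like cells. In fibroblast-like cells of calves 2 and 3 a count of 0 allows levels of up to 0.0763 and 0.0607, and in mural-like cells up to 0.0826 and 0.0549. Immune-like cells held 1 UMI in calf 2 and 43 in calf 3, a level of 0.120 in calf 3 where the epithelial-like cells had 0.00543. HK2 therefore made up 15.9% of the hexokinase 1 and 2 UMIs of immune-like cells in calf 3, and 0.338%, 0.409% and 1.33% of those of epithelial-like cells in calves 1, 2 and 3. After every cell had been thinned to 2000 UMIs, 2.44% of the immune-like cells of calf 3 had an HK2 UMI (95% Clopper-Pearson interval 1.37 to 3.99), against 0.0647% of its epithelial-like cells (0.0210 to 0.151). The intervals cover counting error only, and with 1 UMI in calf 2 the difference has no second animal behind it.

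At the committed step, PFKP showed the largest differences of the 9 genes tested. Epithelial-like cells held 149, 108 and 37 PFKP UMIs, or levels of 0.0294, 0.0157 and 0.00528 in calves 1, 2 and 3. Endothelial-like cells had 1.45, 1.07 and 0.762, mural-like cells 1.21 and 0.733, immune-like cells 1.44 and 1.07, and fibroblast-like cells 0.192, 0.763 and 0.385. No value of another class overlapped the epithelial-like values, although the fibroblast-like value of calf 1 rests on 1 UMI. The fold differences were 57.0-fold in endothelial-like (log2 difference 5.83 ± 0.34, adjusted p = 2.4e-09), 63.6-fold in mural-like (5.99 ± 0.42, adjusted p = 3.32e-08), 96.3-fold in immune-like (6.59 ± 0.39, adjusted p = 4.34e-09) and 31.7-fold in fibroblast-like cells (4.99 ± 0.46, adjusted p = 5.33e-07, all edgeR). After thinning to 2000 UMIs, 18.8% (95% interval 10.4 to 30.1), 24.5% (20.7 to 28.6) and 13.1% (10.5 to 16.0) of endothelial-like cells had a PFKP UMI in calves 1, 2 and 3. Of the epithelial-like cells 0.540% (0.346 to 0.802), 0.198% (0.115 to 0.316) and 0.104% (0.0447 to 0.204) had one. The thinning left out 138, 219 and 151 epithelial-like and 9, 38 and 44 endothelial-like cells that were shallower. The liver-type subunit PFKL, which takes part in the same tetramers, went the other way. It was at 0.788, 0.574 and 0.584 in epithelial-like cells and called lower in endothelial-like (-0.63), fibroblast-like (-1.29) and mural-like cells (-1.16), but not in immune-like cells.

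ALDOA, GAPDH, PGK1 and PKM, the enzymes from the splitting of the sugar to pyruvate, were called lower in fibroblast-like cells, although PKM was higher there in 1 of the 3 calves, and took different courses in the other classes. ALDOA was at 6.44, 3.95 and 4.62 in epithelial-like cells of calves 1, 2 and 3, at 4.03, 2.98 and 2.52 in endothelial-like cells and at 3.65, 2.49 and 2.09 in fibroblast-like cells. It was lower within every calf, by 2.04-fold in endothelial-like (log2 difference -1.03 ± 0.16, adjusted p = 5.73e-05) and by 2.47-fold in fibroblast-like cells (-1.31 ± 0.17, adjusted p = 2.12e-05, edgeR). Mural-like cells, at 3.30 and 3.17, were lower by 1.71-fold (-0.77 ± 0.19, adjusted p = 0.00537, edgeR), a call lost without calf 2 (adjusted p = 0.0695), without calf 3 (adjusted p = 0.196) and with scaling by total UMIs alone (adjusted p = 0.12). Immune-like cells, at 4.84 and 4.20, lay on either side of the epithelial-like values of the same calves and were not called (adjusted p = 0.545).

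GAPDH stood at 17.7, 10.7 and 10.9 in epithelial-like cells, at 17.1, 9.88 and 10.8 in endothelial-like cells and at 10.4, 6.0 and 4.39 in fibroblast-like cells. The fibroblast-like values were lower by 2.66-fold (-1.41 ± 0.18, adjusted p = 1.34e-05, edgeR). The endothelial-like levels differed little from the epithelial-like ones within each calf, and the call there (-0.43 ± 0.17, adjusted p = 0.0447, edgeR) was lost without each calf (adjusted p between 0.0708 and 0.227) and with scaling by total UMIs alone (-0.06, adjusted p = 0.793). In immune-like cells GAPDH reached 21.4 and 19.8, both above the epithelial-like values of the same calves, and was called 1.66-fold higher (0.73 ± 0.19, adjusted p = 0.00534, edgeR). With either of these calves left out the immune-like call was lost (adjusted p = 0.232 without calf 2 and 0.206 without calf 3). Mural-like cells, at 10.8 and 8.59, were not called (adjusted p = 0.0642), but passed the threshold as lower under 5 of the 12 alternatives run (lowest adjusted p = 0.0179, DESeq2).

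PGK1 had levels of 1.63, 1.02 and 1.23 in epithelial-like cells and 0.577, 0.712 and 0.971 in fibroblast-like cells, 1.92-fold lower (-0.94 ± 0.23, adjusted p = 0.00407, edgeR) and not called with scaling by total UMIs alone (adjusted p = 0.0733). Endothelial-like cells had 2.29, 1.70 and 1.96, above the epithelial-like value of each calf, but the fitted difference of 0.26 ± 0.18 was not called (adjusted p = 0.263) unless total UMIs alone set the scale (0.64, adjusted p = 0.00981, edgeR). PGK1 in immune-like and mural-like cells was not called either (adjusted p = 0.278 and 0.319). PKM was at 3.79, 2.00 and 2.27 in epithelial-like cells and at 2.49, 1.82 and 1.63 in endothelial-like cells, 1.73-fold lower (-0.79 ± 0.19, adjusted p = 0.00284, edgeR) and not called on the scale of total UMIs alone (adjusted p = 0.0905). In mural-like cells, at 1.32 and 1.26, it was 2.23-fold lower (-1.16 ± 0.25, adjusted p = 0.00192, edgeR). Fibroblast-like cells had 2.31, 2.19 and 1.50, above the epithelial-like level in calf 2 and below it in calves 1 and 3, with a difference of -0.77 ± 0.21 (adjusted p = 0.00934, edgeR), which was lost without calf 3 (adjusted p = 0.105), without the calf as a block (adjusted p = 0.0514) and on the scale of total UMIs alone (adjusted p = 0.213). Immune-like cells had 4.99 and 2.72, above the same calves' epithelial-like values, and were not called (adjusted p = 0.0761) while the class held a small cluster led in part by KRT15. Without that cluster PKM was called higher (0.61, adjusted p = 0.0372, edgeR), and no other call among the 9 genes changed in immune-like cells.

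At the last step the lactate dehydrogenases separated the classes. LDHA was at 4.03, 3.76 and 3.30 in epithelial-like cells of calves 1, 2 and 3 and at 0.577, 0.534 and 0.587 in fibroblast-like cells. That is 8.62-fold lower (-3.11 ± 0.24, adjusted p = 9.95e-08, edgeR), the largest decrease of the 9 genes in any class, and in calves 1, 2 and 3 the fibroblast-like level was 14.3%, 14.2% and 17.8% of the epithelial-like one. The keratins stood at 35.4%, 7.68% and 11.9% in the same cells, above the LDHA share in calf 1, with 16 cells, and below it in calves 2 and 3. Mural-like cells, at 1.46 and 0.916, were 4.16-fold lower (-2.06 ± 0.24, adjusted p = 1.06e-05, edgeR). Endothelial-like cells, at 2.47, 4.08 and 2.78, overlapped the epithelial-like values, with 1 of the 3 calves higher, and the fitted difference of -0.64 ± 0.18 (adjusted p = 0.00908, edgeR) was lost without calf 1 (adjusted p = 0.0855), without calf 3 (adjusted p = 0.0647), without the block (adjusted p = 0.0765) and on the scale of total UMIs alone (adjusted p = 0.248). Immune-like cells had 6.14 and 4.71, above the epithelial-like value of each calf, and were not called (adjusted p = 0.254).

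LDHB was higher outside the epithelium in every class and calf. Its level was 2.43, 1.51 and 1.68 in epithelial-like cells, 5.48, 4.18 and 3.77 in endothelial-like cells, 2.69, 3.36 and 2.51 in fibroblast-like cells, 3.80 and 2.51 in mural-like cells and 3.43 and 3.12 in immune-like cells. It was called in endothelial-like cells (1.85-fold, 0.89 ± 0.20, adjusted p = 0.00159), where the call was lost without calf 2 (adjusted p = 0.0668), and in immune-like cells (1.70-fold, 0.76 ± 0.23, adjusted p = 0.0131), where it was lost without calf 2 (adjusted p = 0.328) and without calf 3 (adjusted p = 0.237, all edgeR). The differences in fibroblast-like (0.30, adjusted p = 0.3) and mural-like cells (0.53, adjusted p = 0.11) were called on the scale of total UMIs alone (adjusted p = 0.0114 and 0.00598, edgeR).

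**Figure D2:**
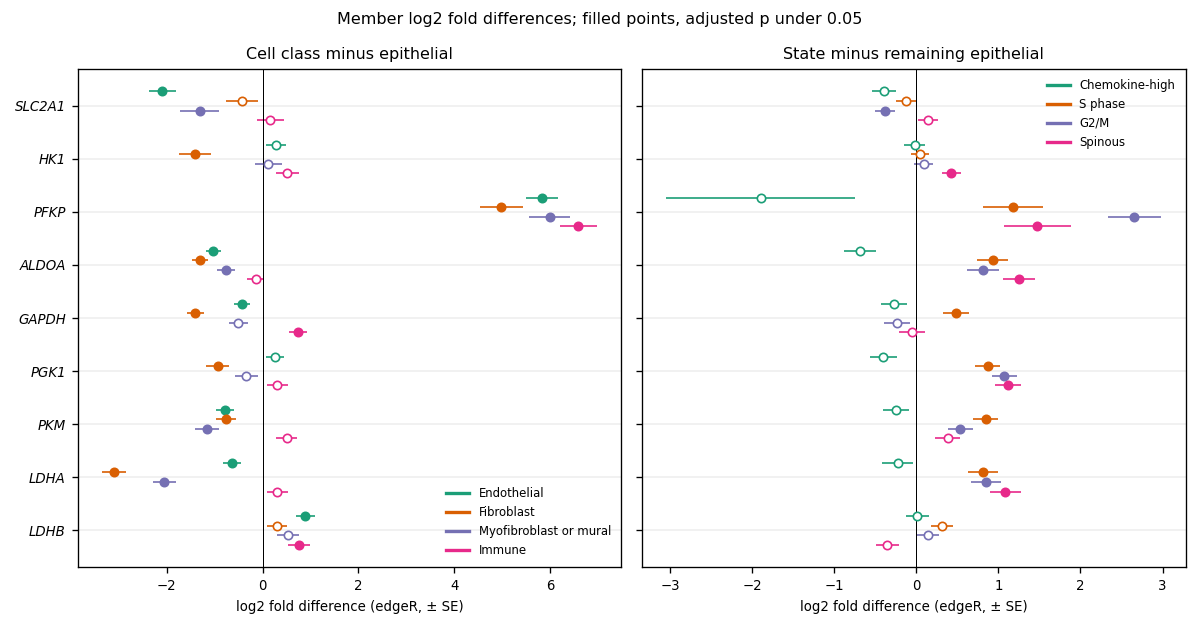
Fold differences of the 9 genes tested. The x axis is the log2 fold difference from edgeR, with an SE computed from the F statistic. The left side shows the 4 other cell classes minus epithelial-like cells and the right side the epithelial states minus the remaining epithelial cells. Filled points mark an adjusted p under 0.05. PFKP lies between 4.99 and 6.59 on the left, and LDHA reaches -3.11 in fibroblast-like cells.

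Within the epithelium, 4 states were named from fixed markers. They were 1478 S-phase-like cells led by UHRF1, RRM2 and MCM genes of DNA replication, 1082 G2/M-like cells led by CENPF, TOP2A and MKI67 of mitosis, 924 spinous-like cells led by SPINK5 and KRTDAP of keratinocyte differentiation, and 646 chemokine-high cells led by GRO1, CXCL2 and CCL20. The remaining 17158 epithelial cells served as the reference. The states differed in depth and RNA make-up, with medians of 13404, 13759, 11622.5 and 7405 UMIs in S-phase-like, G2/M-like, spinous-like and chemokine-high cells against 7325 in the remaining cells, and of 7.55%, 9.51%, 9.24% and 4.57% mitochondrial UMIs against 5.33%. Immediate-early and heat-shock genes, which rise with handling of tissue, summed to 43.8, 74.0 and 94.2 UMIs per 10000 in the remaining cells of calves 1, 2 and 3. In S-phase-like, G2/M-like and spinous-like cells their sum was between 15.4 and 48.0, and lower than in the remaining cells of the same calf, whereas chemokine-high cells had 96.1, 115 and 154. The part of depth, mitochondrial share and handling genes in the results on glycolysis was not tested.

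ALDOA, PGK1 and LDHA were called higher than in the remaining epithelial cells in S-phase-like, G2/M-like and spinous-like cells, PKM in both cycling states and GAPDH in S-phase-like cells, and none of the 9 genes was called in chemokine-high cells. In S-phase-like cells 6 of the 9 genes tested were called, all higher, against 32.7% of the 10534 genes tested, 17.4% higher and 15.3% lower. G2/M-like cells had 6 calls, 5 higher and 1 lower, against 41% of all genes, 20.8% higher and 20.2% lower. Spinous-like cells had 5 calls, all higher, against 45.3% of all genes, 23.8% higher and 21.6% lower. The median log2 difference of the 9 genes was 0.81, 0.54 and 0.43 in the 3 states, where the median over all genes lay between -0.02 and 0.00. With scaling by total UMIs alone, the share of called genes that were higher went from 53.2% to 64.9% in S-phase-like, from 50.6% to 70.5% in G2/M-like and from 52.4% to 36.0% in spinous-like cells, with median shifts of 0.08, 0.18 and -0.18. The genes of the wider list were also left out of the clustering, but other genes that move with them were not, so the tests compare states already separated by their RNA.

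**Figure D3:**
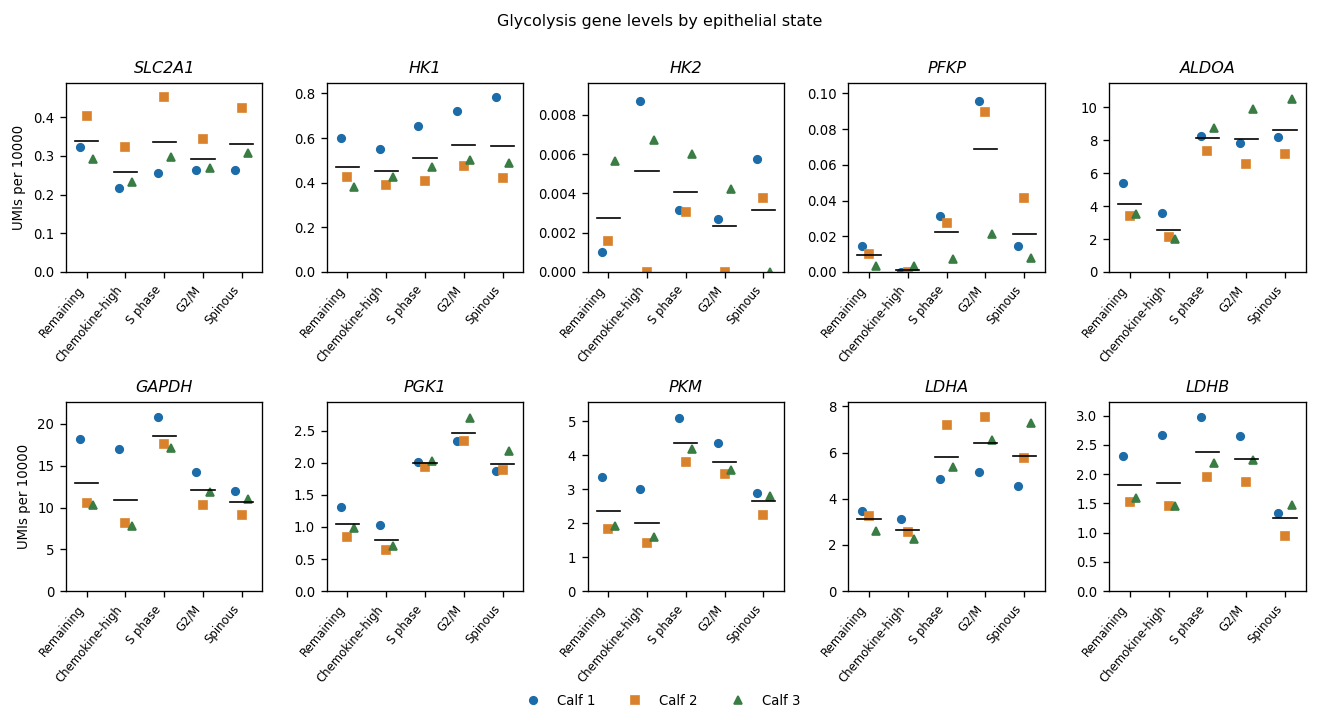
Levels of the 10 genes in the 5 groups of epithelial cells. Each panel is 1 gene with UMIs per 10000 on the y axis from 0, points are calves and bars are means over the 3 calves; for ALDOA the S-phase-like, G2/M-like and spinous-like values of 6.53 to 10.5 all lie above the remaining epithelial cells at 3.38 to 5.41, whereas the SLC2A1 values of every group lie between 0.218 and 0.453.

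SLC2A1 and HK1, at the entry of the pathway, had 1 call each over the 4 states. SLC2A1 was at 0.322, 0.403 and 0.292 in the remaining cells of calves 1, 2 and 3 and between 0.218 and 0.453 in every state. The only call was in G2/M-like cells, at 0.265, 0.345 and 0.270, where it was 1.31-fold lower (-0.39 ± 0.12, adjusted p = 0.0193, edgeR). This call was lost without each calf (adjusted p = 0.104, 0.0682 and 0.0684 without calves 1, 2 and 3), without the block (adjusted p = 0.414) and on the scale of total UMIs alone (adjusted p = 0.189). HK1 was at 0.601, 0.425 and 0.380 in the remaining cells and called in spinous-like cells alone, at 0.785, 0.420 and 0.489 (1.34-fold, 0.43 ± 0.11, adjusted p = 0.00739, edgeR). In calf 2 the level was not higher, and the call was lost without calf 1 (adjusted p = 0.0945), without calf 3 (adjusted p = 0.0872) and on the scale of total UMIs alone (adjusted p = 0.0893). HK2 had 42 UMIs in all remaining cells and 3 to 8 in each of the 4 states, and was not tested.

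PFKP, scarce in the epithelium as a whole, was called higher in all 3 states other than the chemokine-high one, with the largest difference in G2/M-like cells. It had 43, 56 and 19 UMIs in the remaining cells of calves 1, 2 and 3, or levels of 0.0147, 0.00990 and 0.00358, and 71, 21 and 10 UMIs in G2/M-like cells, or levels of 0.0959, 0.0893 and 0.0212. The levels were higher in G2/M-like cells of every calf, by 6.31-fold (2.66 ± 0.32, adjusted p = 1.53e-05, edgeR). In S-phase-like cells, at 0.0316, 0.0274 and 0.00754, the difference of 1.18 ± 0.36 (adjusted p = 0.0227, edgeR) was lost without each calf (adjusted p = 0.101, 0.0872 and 0.112) and when doublets were not removed (0.49, adjusted p = 0.439). In spinous-like cells the difference rested on calf 2, with 22 of 29 UMIs (1.47 ± 0.41, adjusted p = 0.00859, edgeR). The call was lost without that calf (0.42, adjusted p = 0.656) and without the calf as a block (adjusted p = 0.199). It was also lost when doublets were not removed (0.86, adjusted p = 0.186) and when glycolysis genes were allowed in the clustering (0.38, adjusted p = 0.624, all edgeR). A cluster of the remaining cells led by FABP4 stood at 0.119, 0.115 and 0.0240, from 10, 28 and 4 UMIs. These values were above the G2/M-like ones, but in calf 3 the counts were too few to rank the groups. All these levels lay below the 0.762 to 1.45 of endothelial-like cells.

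ALDOA, PGK1 and LDHA were called higher in all 3 states. ALDOA rose from 5.41, 3.38 and 3.50 in the remaining cells of calves 1, 2 and 3 to 8.26, 7.34 and 8.76 in S-phase-like cells (1.90-fold, 0.93 ± 0.19, adjusted p = 0.00224), to 7.83, 6.53 and 9.89 in G2/M-like cells (1.76-fold, 0.81 ± 0.19, adjusted p = 0.00371) and to 8.16, 7.14 and 10.5 in spinous-like cells (2.39-fold, 1.26 ± 0.19, adjusted p = 0.000115, all edgeR). No value of these states overlapped the remaining cells, while the 3 states overlapped one another. The G2/M call was lost without calf 3 (adjusted p = 0.066).

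PGK1 was at 1.31, 0.838 and 0.982 in the remaining cells, at 2.00, 1.94 and 2.03 in S-phase-like, at 2.35, 2.34 and 2.70 in G2/M-like and at 1.86, 1.89 and 2.18 in spinous-like cells. Its differences of 0.87 ± 0.15 (adjusted p = 0.00073), 1.07 ± 0.15 (adjusted p = 7.55e-05) and 1.11 ± 0.15 (adjusted p = 4.75e-05, edgeR) were called under every alternative that was run. The states again lay wholly above the remaining cells, and the calves lay closer together in the states than in the remaining cells.

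LDHA went from 3.45, 3.24 and 2.61 in the remaining cells to 4.86, 7.21 and 5.40 in S-phase-like, 5.16, 7.52 and 6.55 in G2/M-like and 4.57, 5.77 and 7.26 in spinous-like cells, with no overlap. The differences were 0.81 ± 0.18 (adjusted p = 0.00413), 0.85 ± 0.19 (adjusted p = 0.00214) and 1.08 ± 0.19 (adjusted p = 0.000287, edgeR). The S-phase call was lost without calf 2 (adjusted p = 0.0714), without calf 3 (adjusted p = 0.0547) and without the calf as a block (adjusted p = 0.0701). Calf 1 had the lowest LDHA in each of these states, although it had the highest in the remaining cells.

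GAPDH, PKM and LDHB were called in fewer states. GAPDH was at 18.2, 10.5 and 10.3 in the remaining cells and at 20.8, 17.6 and 17.1 in S-phase-like cells, 1.40-fold higher (0.48 ± 0.16, adjusted p = 0.0312, edgeR), a call lost without calf 2 (adjusted p = 0.232), without calf 3 (adjusted p = 0.22) and without the block (adjusted p = 0.461). In G2/M-like cells, at 14.3, 10.3 and 11.9, and in spinous-like cells, at 12.0, 9.12 and 10.97, GAPDH was below the remaining cells in calves 1 and 2 and above them in calf 3, with adjusted p = 0.247 and 0.792 (edgeR). For spinous-like cells GAPDH passed the threshold as lower under 2 of the 15 alternatives run (lowest adjusted p = 0.0415, edgeR). PKM was at 3.36, 1.82 and 1.93 in the remaining cells, at 5.10, 3.81 and 4.17 in S-phase-like cells (1.80-fold, 0.84 ± 0.15, adjusted p = 0.000784) and at 4.36, 3.45 and 3.55 in G2/M-like cells (1.45-fold, 0.54 ± 0.15, adjusted p = 0.0104, edgeR). The G2/M call was lost without calf 2 (adjusted p = 0.119) and without calf 3 (adjusted p = 0.159), and neither PKM call held without the block (adjusted p = 0.124 and 0.295). In spinous-like cells, at 2.89, 2.25 and 2.79, PKM was not called (0.38, adjusted p = 0.0503, edgeR). It passed the threshold as higher under 2 of the 15 alternatives run (lowest adjusted p = 0.0023, edgeR without calf 1).

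LDHB was at 2.31, 1.52 and 1.59 in the remaining cells, and at 2.97, 1.96 and 2.18 in S-phase-like, 2.65, 1.86 and 2.24 in G2/M-like and 1.34, 0.935 and 1.47 in spinous-like cells. It was lower in spinous-like cells of every calf, with a difference of -0.35 ± 0.14 and adjusted p = 0.0518 (edgeR), which passed the threshold under 9 of the 15 alternatives run (lowest adjusted p = 0.00138), among them total UMIs alone (-0.53, adjusted p = 0.00871) and calf 3 left out (-0.57, adjusted p = 0.0117). Its differences in S-phase-like (0.31, adjusted p = 0.0931) and G2/M-like cells (0.14, adjusted p = 0.43) were not called.

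In chemokine-high cells none of the 9 genes was called by edgeR, where 1.31% of the 10534 genes tested were called, 0.797% higher and 0.513% lower, and 3 had an unadjusted p under 0.05. DESeq2 called none of them either. ALDOA, at 3.59, 2.10 and 1.99 in calves 1, 2 and 3, was below the remaining cells in every calf, with a difference of -0.69 ± 0.20 and adjusted p = 0.121. SLC2A1 (-0.39, adjusted p = 0.23) and PGK1 (-0.40, adjusted p = 0.309) were the other genes with an unadjusted p under 0.05. Without a filter on low counts, ALDOA, GAPDH and PGK1 were called lower (adjusted p = 1.52e-06, 0.0479 and 0.0285, edgeR).

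The 17158 remaining epithelial cells were themselves uneven. They fell into 7 clusters, and the levels of ALDOA and LDHA differed several-fold between the extremes. The largest cluster, 4848 cells led by RGS4 and DCN, had ALDOA at 3.40, 1.86 and 2.26 in calves 1, 2 and 3, LDHA at 2.65, 1.94 and 1.50 and a summed level of the 10 genes of 29.6, 16.2 and 17.3, the lowest of the clusters of the remaining cells in calves 2 and 3. A cluster of 383 cells led by FABP4, CYP26A1 and GJA1, genes of fatty acid binding, retinoid breakdown and gap junctions, had ALDOA at 13.8, 7.66 and 15.4, LDHA at 8.38, 9.31 and 9.64 and a sum of 55.8, 44.6 and 53.0. Every calf was higher in the second cluster for ALDOA, GAPDH, PGK1, PKM, LDHA and LDHB. Its sum was the highest of the 11 epithelial clusters in calves 1 and 3. GJA1 is on the list of spinous markers, of which 3 of the 8 compared were at a log2 difference of 1 or more here. Their mean was -0.36, below the 2 needed for the name, so the cluster stayed among the remaining cells. In the paper, a spinous subtype high in GJA1 is called channel-gap-like spinous cells.

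That cluster was deep, with a median of 13086 UMIs and 13.0% mitochondrial UMIs, against 6784 and 4.35% in the cluster led by RGS4 and DCN. After thinning to 2000 UMIs, 71.9%, 77.5% and 81.0% of its cells had an LDHA UMI in calves 1, 2 and 3, against 38.3%, 32.7% and 24.8% in the cluster led by RGS4 and DCN. For ALDOA the shares were 87.7%, 73.3% and 92.1% against 48.4%, 28.0% and 34.2%. The shares were higher in the deeper cluster in every calf, and the part of its mitochondrial share was not tested. A cluster of 147 shallow cells, with a median of 1823 UMIs and 0.736% mitochondrial UMIs, was led by the class II genes BOLA-DRA and BLA-DQB and by KRT14, and its sums were 44.6, 68.1 and 49.7. The cluster led by genes without a symbol and by ADAMTSL5, with 15.5% mitochondrial UMIs, had sums of 27.6, 22.2 and 20.0. Leaving these last clusters out of the reference changed 1 call, that of LDHB in spinous-like cells (-0.37, adjusted p = 0.0435, edgeR).

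**Figure D4:**
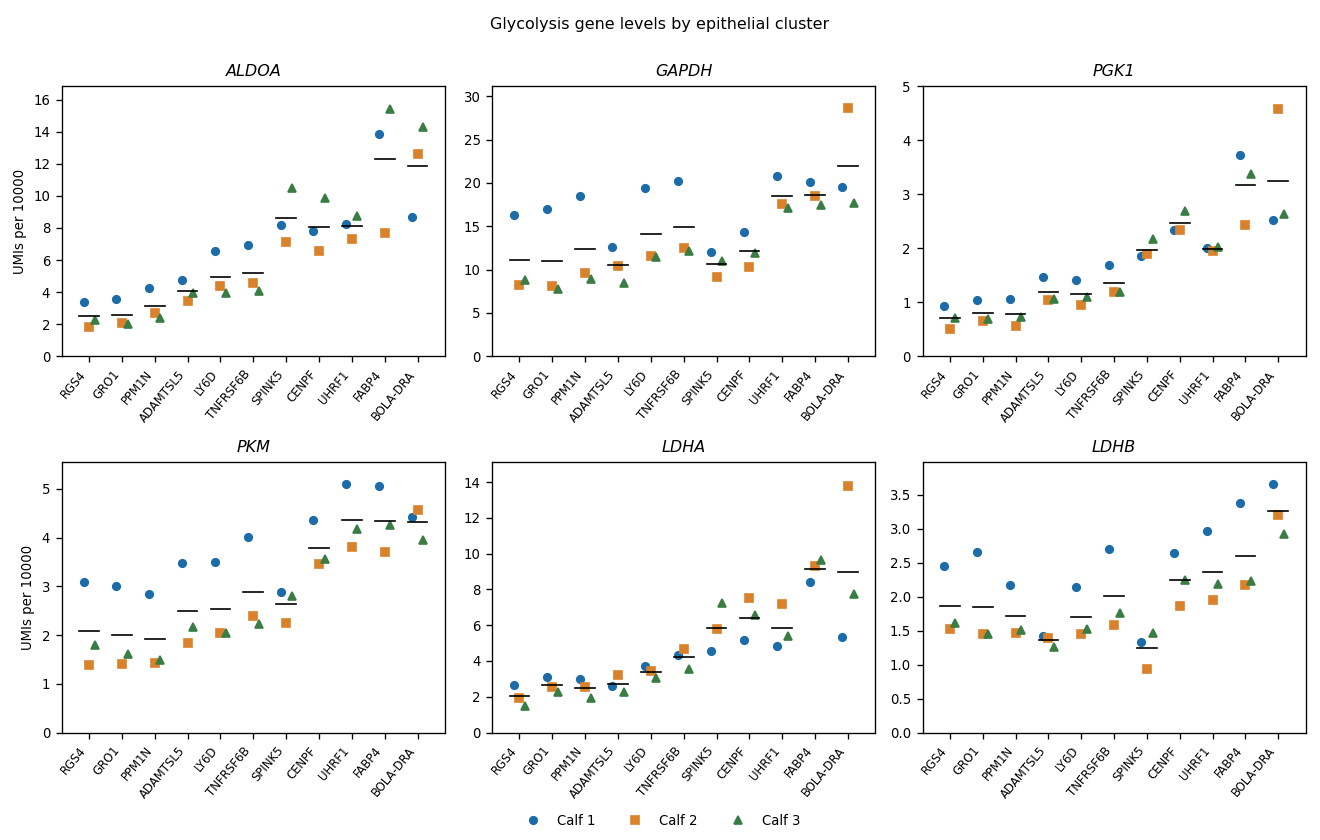
Levels of ALDOA, GAPDH, PGK1, PKM, LDHA and LDHB in the 11 epithelial clusters. Clusters stand on the x axis by their first leading gene with a symbol, in order of the mean summed level of the 10 genes. The y axes show UMIs per 10000 from 0, points are calves and bars are means. The cluster led by FABP4 reaches 15.4 for ALDOA, and the cluster led by RGS4 lies at 3.40 or less.

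Over the sums of the 11 epithelial clusters by calf, LDHA and LDHB moved with different genes. As a description over 33 sums centred within each calf, which share libraries and depth, Pearson's r of LDHA was 0.97 with PGK1, 0.96 with ALDOA, 0.91 with PKM and 0.76 with GAPDH, but 0.61 with LDHB. Among the 2078 genes compared, those most like LDHA were ATP5MC3 (0.98), UQCRFS1 (0.97), CYC1 (0.97), ATP5MF (0.97) and NDUFB3 (0.97), which are nuclear genes of the mitochondrial respiratory chain and ATP synthase. Those most like LDHB were SF3B5 (0.93), a splicing factor subunit, TMA7 (0.91), MIF (0.90), a cytokine, MRFAP1L1 (0.90) and COPS6 (0.89), a signalosome subunit.

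The balance of the lactate dehydrogenases differed between classes and states. LDHA made up 62.4%, 71.4% and 66.2% of the LDHA and LDHB UMIs of epithelial-like cells in calves 1, 2 and 3, and 64.2% and 60.1% of those of immune-like cells. It made up 31.0%, 49.4% and 42.4% in endothelial-like cells, 27.7% and 26.7% in mural-like cells and 17.6%, 13.7% and 19.0% in fibroblast-like cells. Endothelial-like, mural-like and fibroblast-like cells lay below the epithelial-like cells in every calf, and the fibroblast-like cells lay lowest. Because both are counted at the 3′ end, the share was read across groups of cells and not as a ratio of the proteins.

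Among epithelial states the share was highest in spinous-like cells, at 77.4%, 86.1% and 83.1%, against 59.9%, 68.1% and 62.1% in the remaining cells. G2/M-like cells had 66.0%, 80.1% and 74.5%, S-phase-like cells 62.1%, 78.6% and 71.2% and chemokine-high cells 54.0%, 63.6% and 61.0%. In each calf the order was spinous-like, G2/M-like, S-phase-like, remaining and chemokine-high. The clusters of the remaining cells spread from 52.0%, 56.0% and 48.3% in the one led by RGS4 and DCN to 71.3%, 81.1% and 81.2% in the one led by FABP4. These shares are descriptions, and no test of them was run.

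**Figure D5:**
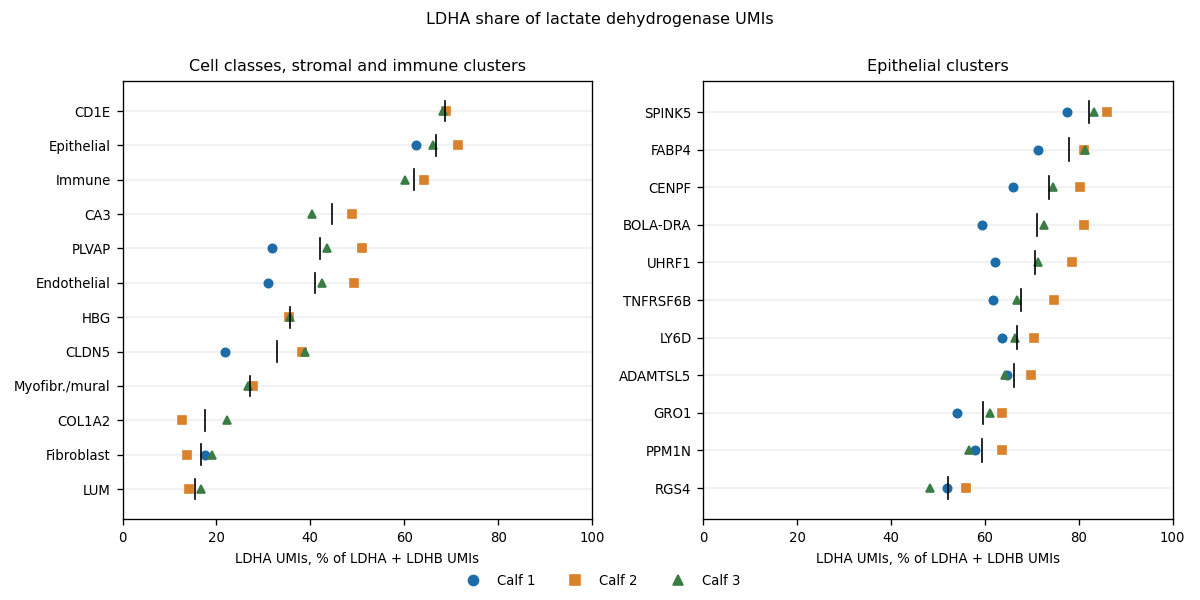
Share of LDHA among LDHA and LDHB UMIs, in percent on the x axis from 0 to 100. Rows are cell classes with the clusters of stromal and immune-like cells on the left and epithelial clusters on the right, ordered by mean, with points for calves and bars for means; fibroblast-like cells lie at 13.7% to 19.0% and spinous-like cells, named SPINK5, at 77.4% to 86.1%.

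The same UMIs were also counted cell by cell, which gives no separate evidence on the balance. At 2000 UMIs a cell without a UMI of a gene may still hold its RNA. After thinning to 2000 UMIs, cells with LDHA but no LDHB were 31.0%, 33.0% and 27.6% of epithelial-like cells in calves 1, 2 and 3, and cells with LDHB but no LDHA were 16.4%, 14.2% and 15.3%. In endothelial-like cells the order turned, with 10.1%, 20.6% and 18.9% for LDHA alone and 34.8%, 25.2% and 33.4% for LDHB alone. Spinous-like cells had LDHA alone in 38.3%, 46.6% and 44.8% and LDHB alone in 7.0%, 5.56% and 7.55%. In fibroblast-like cells LDHB alone was found in 36.4%, 47.9% and 39.4%, and LDHA alone in 18.2%, 1.41% and 2.75%, where thinning left out 5, 135 and 99 cells. Median depths before thinning were 7730.5, 4123, 11622.5 and 1918.5 UMIs in these 4 groups. Of the epithelial-like cells, 18.75%, 11.3% and 10.8% had both genes in calves 1, 2 and 3, and 33.9%, 41.5% and 46.3% had neither. Whether single cells divide by the gene they hold was not tested.

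Within the classes, clusters led by different genes held different amounts. The largest immune-like cluster, 341 cells led by CD1E, C1QA and APOE, had a summed level of 56.5 and 46.1 in calves 2 and 3, with GAPDH at 26.4 and 23.8, LDHA at 8.12 and 6.03 and PFKP at 1.89 and 1.45. The next, 257 cells led by HBG, CTSW and IL17F, had 28.5 and 25.3, with GAPDH at 12.2 and 12.0 and LDHA at 2.03 and 2.24. LDHA made up 68.9% and 68.3% of the 2 lactate dehydrogenases in the first and 35.6% and 35.7% in the second. HK2 UMIs were found mostly in the first cluster, at a level of 0.168 in calf 3. Its level in the second cluster of that calf was 0.0292. Smaller clusters of calf 3 stood at 0.134 and 0.126, from 5 and 3 UMIs, or at 0, so HK2 was not particular to the first. The first and second clusters differed in depth, with medians of 6552 and 2523 UMIs. The levels of the immune-like class average over these clusters, and 680 of its 766 cells came from calf 3.

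Of the 1245 endothelial-like cells, 911 were led by PLVAP and TFPI2 and 332 by CLDN5 and APOA1. Their summed levels were 38.2, 27.2 and 27.8 against 29.0, 23.2 and 18.9, higher in the first in every calf. GAPDH, at 18.2, 10.4 and 12.9 against 12.7, 7.15 and 6.29, and LDHA, at 2.79, 4.42 and 3.19 against 0.987, 2.41 and 1.92, were higher in the cluster led by PLVAP in every calf. Of the fibroblast-like cells, 300 were led by LUM and CXCL14 and 130 by COL1A2 and COL1A1, and their LDHA levels of 0.554 and 0.515 against 0.489 and 0.690 in calves 2 and 3 went in opposite directions.

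The other genes of glucose metabolism were counted from a list of 64 genes, of which 36 were tested between classes and 46 between states. Against epithelial-like cells, 22 were called in endothelial-like cells (6 higher, 16 lower), 18 in fibroblast-like cells (5 and 13), 14 in mural-like cells (5 and 9) and 21 in immune-like cells (13 and 8). These are 61.1%, 50.0%, 38.9% and 58.3% of the genes of the list that were tested, beside 49.5%, 41.5%, 31.3% and 49.5% of all genes tested. Counting either direction, the shares lay near the background. Lower calls outnumbered higher ones in endothelial-like, fibroblast-like and mural-like cells. Over all genes tested, higher calls were slightly more common than lower ones in each class. Among lower glycolysis, the enolase ENO1 was at 4.23, 2.29 and 2.92 in epithelial-like cells, at 8.03, 5.41 and 6.0 in endothelial-like cells (0.69, adjusted p = 0.0022) and at 11.6 and 9.27 in immune-like cells (1.74, adjusted p = 2.38e-06, edgeR), but was lower in fibroblast-like cells (-0.53, adjusted p = 0.024). The isomerases GPI and TPI1 were lower in endothelial-like (-1.58 and -0.46) and fibroblast-like cells (-1.71 and -0.65). The aldolase ALDOC was higher in immune-like cells (5.29, from 0.695 and 0.429 against 0.0207, 0.00960 and 0.0149).

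The carriers of lactate took different courses outside the epithelium. SLC16A1 (MCT1, which carries lactate and short-chain fatty acids) was at 3.00, 1.04 and 3.86 in epithelial-like cells and called lower in endothelial-like (-2.93), fibroblast-like (-2.91), mural-like (-3.73) and immune-like cells (-2.52). BSG, its partner protein at the membrane, was lower in the same 4 classes, by -1.54, -1.02, -1.39 and -2.07. SLC16A7 (MCT2) was lower in endothelial-like (-4.52), immune-like (-4.45) and mural-like cells (-1.29). SLC16A3 (MCT4, known from cells that export lactate) stood at 0.336 and 0.317 in immune-like cells and at 0.00867, 0.000727 and 0.00143 in epithelial-like cells, a log2 difference of 7.79, and its calls in fibroblast-like (4.60) and mural-like cells (5.07) rest on few UMIs. Beyond pyruvate, PDHA1 of pyruvate dehydrogenase was lower in all 4 classes (-1.47, -0.90, -0.89 and -1.84), and the kinase PDK4, which shuts that enzyme down, was higher in endothelial-like cells (2.14).

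Further calls of the list fell on side branches of the pathway. The glycogen phosphorylase PYGB was higher in all 4 classes, by 2.26, 2.01, 1.94 and 2.80 in endothelial-like, fibroblast-like, mural-like and immune-like cells. Immune-like cells were also higher in TKT (1.24), TALDO1 (0.54) and RPIA (1.47) of the pentose phosphate pathway, in TPI1 (0.59), PGAM1 (0.94) and ENO3 (4.18), and in the transporter SLC2A8 (2.31), and lower in GPI (-0.66), PGM1 (-0.84), PDK3 (-1.11) and DLAT (-0.85). Endothelial-like cells were higher in ADPGK and ALDOC and lower in PCK2, PDK1, PDK3, PYGL, PDHB, DLAT, PGM1, UGP2 and PGD. In fibroblast-like cells SLC2A13 and ENO3 were higher, and PDK3, PDHB, PGLS, MPC2, TKT and TALDO1 lower. In mural-like cells ALDOC was higher, and PDK3, GPI, PGLS and UGP2 lower.

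Between epithelial states, 18 of the 46 genes tested were called in S-phase-like cells (14 higher, 4 lower), 18 in G2/M-like cells (13 and 5), 28 in spinous-like cells (21 and 7) and none in chemokine-high cells, where edgeR gave 19 an unadjusted p under 0.05 and DESeq2 called 1. The shares called were 39.1% in S-phase-like, 39.1% in G2/M-like and 60.9% in spinous-like cells, beside 32.7%, 41% and 45.3% of all genes tested. Counting either direction, the cycling states lay near the background. Higher calls outnumbered lower ones there, at 14 to 4 and 13 to 5. Of all genes tested in these states, 17.4% and 20.8% were called higher and 15.3% and 20.2% lower. TPI1 and ENO1 accompanied ALDOA and PGK1, with differences of 1.00 and 1.06 in S-phase-like, 1.03 and 1.04 in G2/M-like and 1.30 and 1.42 in spinous-like cells. PFKFB3, which makes the activator of phosphofructokinase, was lower in the 3 states (-0.99, -1.45 and -1.40). PFKL was called higher in S-phase-like cells alone (0.80). PGAM1, GPI, TALDO1, PDHA1, PDHB and DLAT were called higher in all 3 states, and PDK4 and the transporter SLC2A12 lower in all 3. In G2/M-like cells PFKFB4, SLC16A1 and ENO2 were higher too, and PFKFB2 and SLC2A13 lower. In S-phase-like cells PGD, BSG and PC were higher too and PFKFB2 lower.

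FBP1, the phosphatase that opposes phosphofructokinase in gluconeogenesis, had the largest difference given here for the list between epithelial states. It was at 0.427, 0.117 and 0.158 in spinous-like cells of calves 1, 2 and 3 and at 0.0192, 0.00265 and 0.00790 in the remaining cells (4.87, adjusted p = 1.33e-07, edgeR), with smaller differences in G2/M-like (2.46) and S-phase-like cells (1.58). PCK2, the mitochondrial enzyme that makes phosphoenolpyruvate, was higher in S-phase-like (1.90), G2/M-like (2.25) and spinous-like cells (1.38). HKDC1, a further hexokinase, was called in spinous-like cells (1.60) at levels of 0.0144, 0.0433 and 0.0116. Further calls in spinous-like cells were FBP2, ALDOC, SLC2A8, PDK1, PDK3, PFKFB4, MPC2, PYGL and BSG, all higher, and ENO3, SLC2A13, SLC16A7 and PFKFB2, all lower.

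A list of 16 regulators and targets of hypoxia signalling outside glycolysis was counted in the same way, with 13 tested between classes and 15 between states. The share called was 69.2% in endothelial-like, 46.2% in fibroblast-like, 53.8% in mural-like and 84.6% in immune-like cells, beside 49.5%, 41.5%, 31.3% and 49.5% of all genes tested. In endothelial-like cells 6 were called higher (EPAS1, ANKRD37, DDIT4, ARRDC4, HIF1A and BNIP3L) and 3 lower (ADM, VEGFA and MYC). In immune-like cells ANKRD37, HIF1A, DDIT4, BNIP3L and ARRDC4 were higher, and EPAS1, ADM, NDRG1, MYC, EGLN3 and TXNIP lower. Fibroblast-like cells had 1 called higher, ARRDC4, and 5 lower, MYC, EGLN3, NDRG1, VEGFA and EPAS1, and mural-like cells had EPAS1 higher and NDRG1, ADM, EGLN3, TXNIP, MYC and DDIT4 lower. EPAS1, which endothelium is known for, was at 7.09, 4.76 and 11.1 in endothelial-like and at 1.48, 1.19 and 2.12 in epithelial-like cells. In S-phase-like and G2/M-like cells 7 and 8 of the 15 were called lower, and 0 and 1 higher, while spinous-like cells had 5 higher and 7 lower and chemokine-high cells 2 higher. These are 46.7%, 60%, 80% and 13.3% of the list, beside 32.7%, 41%, 45.3% and 1.31% of all genes tested. ARRDC4, DDIT4 and P4HA1 were lower in both cycling states. TXNIP, an inhibitor of glucose uptake that rises with glucose, was at 10.6, 13.5 and 18.4 in the remaining cells and lower in S-phase-like (-1.31), G2/M-like (-1.58) and spinous-like cells (-1.70). VEGFA, a classical hypoxia target, was lower in the same states (-0.62, -0.94 and -0.33) and higher in chemokine-high cells (0.77, adjusted p = 0.00541, edgeR). HIF1A itself was higher in G2/M-like (0.58) and spinous-like cells (1.35), at 0.929, 0.482 and 0.443 in the latter against 0.320, 0.193 and 0.313 in the remaining cells. In spinous-like cells EPAS1, NDRG1, EGLN3 and BNIP3L were higher too, and CA9, DDIT4, ADM and P4HA1 lower. MYC was lower in S-phase-like (-0.87), G2/M-like (-1.04) and spinous-like cells (-0.91) and higher in chemokine-high cells (0.87).

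The counting of GAPDH, LDHA, PGK1 and ALDOA can be affected by processed copies of these genes elsewhere in the genome, since reads that match several places are dropped or split by the aligner. All values are of RNA at the 3′ end of transcripts, so isoforms such as those of PKM were not told apart.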

How the data were processed

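The authors aligned the reads of 1 Chromium 3′ v3 library per calf to ARS-UCD1.2 with Cell Ranger 3.1.0 and deposited raw UMI counts per gene and barcode, not normalized or filtered. From these, barcodes with 500 to 4000 genes, at most 50000 UMIs and at most 40% of UMIs in the 13 mitochondrial protein-coding genes were kept, and doublets were removed by a score against simulated doublets in place of DoubletFinder. Calves were merged and cells clustered (Python 3.11.15, numpy 2.4.6, scipy 1.17.1, scikit-learn 1.9.0, igraph 0.11.9, leidenalg 0.10.2) without the 10 genes and the 64 of the wider list, and named from marker lists, with naming thresholds set after marker values were seen. Counts were summed per calf and class or state of at least 10 cells and tested with edgeR 4.0.16 (R 4.3.3, TMM, filterByExpr, quasi-likelihood). The calf was a block because the sums come from the same animals. Of these steps the edgeR fit alone had first been tested on simulated counts, drawn without differences between calves. DESeq2 1.42.0, other scalings, filters and resolutions and each calf left out were alternatives. For shares, each cell was thinned once at random to 2000 UMIs and shallower cells were left out. The precision of each value is set by the UMIs of its group. The genes and lists were chosen with earlier results of these data known. Named in the text are the 10 genes, the genes of 2 fixed lists (64 of glucose metabolism, 16 of hypoxia signalling) where called, and the 5 genes most correlated with LDHA and with LDHB among those of at least 50 CPM. Some called genes of these lists are not reported here.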

Additional observations from a re-analysis of the deposited data

Results flagged for a closer look

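Barcodes above the limit of 4000 detected genes entered no comparison, and each of the 10 genes was found there above the limit that a count of 0 allows, except HK2 in calf 2, which had no UMI. There were 797, 187 and 637 such barcodes in calves 1, 2 and 3, with medians of 28663, 30779 and 26812 UMIs. The summed level of the 10 genes in them was 43.606, 30.327 and 37.205 UMIs per 10000, where a count of 0 would allow 0.00117, 0.00496 and 0.00164 for a single gene. These sums lay above those of the epithelial-like cells of the same calves (36.9, 23.8 and 24.7). LDHA made up 66.6%, 78.1% and 74.7% of their LDHA and LDHB UMIs, and ALDOA was at 8.74, 5.16 and 8.50. The barcodes may hold large cells or several cells, which was not tested.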

How the results depend on the processing

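Of the 72 fits of 1 gene in 1 comparison, 39 were called, 20 of these were called under every alternative, and no called difference changed sign. Without the calf as a block, 9 calls of the 10 genes were made between epithelial states in place of 17, of which 2 were in S-phase-like cells in place of 6 and 3 in spinous-like cells in place of 5, and over all genes 1422 were called in G2/M-like (4316 with the block), 596 in S-phase-like (3440), 2146 in spinous-like (4776) and 7 in chemokine-high cells (138). In immune-like cells 1 of the 10 genes was called without the block and 5 with scaling by total UMIs alone, in place of 3. Without a filter on low counts, 6244 genes were called in immune-like cells (4142 with it), and in chemokine-high cells 613 genes and 3 of the 10. In chemokine-high cells DESeq2 called 235 genes, and 318 were called when doublets were not removed. The mean share of cells with a UMI of a gene, 28.5% over the 10 genes in epithelial-like cells thinned to 2000 UMIs, was 18.2% with thinning to 1000 UMIs and 52.6% with none. With 1 calf left out, calls among the 10 genes ranged from 1 to 3 in immune-like, 3 to 6 in mural-like, 3 to 5 in G2/M-like and 3 to 5 in S-phase-like cells, and from 11 to 15 over the states. Over all genes they ranged from 2245 to 3630 in fibroblast-like, 1864 to 4917 in immune-like, 1435 to 2928 in mural-like, 32 to 116 in chemokine-high, 2280 to 3450 in G2/M-like, 1059 to 2588 in S-phase-like and 3030 to 3796 in spinous-like cells. The cause of these changes was not tested, other than that leaving out a calf leaves fewer sums. Scaling by total UMIs alone, the immune-like class without its keratin-led cluster and the reference without its shallow clusters were chosen after seeing the data. At a clustering resolution of 0.4 the chemokine-high cluster did not form and gave no value.

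Depth limits HK2, with under 50 UMIs in any calf and class, and PFKP in epithelial cells. Fibroblast-like cells of calf 1 number 16, and immune-like and mural-like values rest on calves 2 and 3.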

Other observations

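Barcodes of 500 to 4000 genes with more than 40% mitochondrial UMIs were left out of all comparisons. There were 49, 83 and 63 in calves 1, 2 and 3, and their summed level of the 10 genes was 10.5, 9.40 and 8.88 UMIs per 10000. GAPDH was at 3.47, 3.01 and 1.95 in them, while LDHA still made up 64.7%, 81.7% and 73.8% of the LDHA and LDHB UMIs. HK2 was at 0 in the 3 calves, where a count of 0 allows levels of up to 0.153, 0.0922 and 0.115.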
